A study of Mus musculus with 12 samples.

Results

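Tubulins and kinesins are the building blocks and the motors of the microtubule network, and 51 of their genes were found among the 22317 gene symbols of the count table. They were chosen by symbol alone, as every Tuba, Tubb, Tubg or Kif symbol with a number and at most 1 letter after it, which gave 5 α-tubulins, 8 β-tubulins, 2 γ-tubulins and 36 kinesins. Kif12, Kif2b, Tuba3a and Tuba3b were not analysed here. RNA-seq of poly(A) mRNA was available for 12 libraries in 4 groups of 3, from wild-type male BALB/c mice aged 8 weeks. All mice had photothrombosis, in which a laser lights a dye in the blood and closes the vessels of a small area. The libraries labelled SB2 and SB4 are brain cortex on day 2 and day 4 after the skull was injured. Those labelled BS2 and BS6 are interparietal bone, a part of the skull, on day 2 and day 6 after the brain was injured. The pieces were taken as whole tissue and hold many cell types, whether an animal gave more than 1 piece is not stated, and uninjured or directly injured tissue was not analysed here.

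The content of the libraries labelled SB2 and BS2 went against their labels, and the values are therefore tied to labels and not to tissues. The summed level of 8 neuron markers was 22.1 to 64.4 CPM (a read count divided by the library's total and scaled by TMM factors) in the libraries labelled SB2, against 8609 to 8723 CPM in those labelled SB4. The summed level of 5 osteoblast and osteocyte markers (of 6 looked for) was 3013 to 4962 CPM in SB2 and 5.44 to 8.03 CPM in SB4. For the skull labels, neuron markers summed to 8223 to 8320.3 CPM in BS2 and 51.4 to 137 CPM in BS6. Osteoblast and osteocyte markers summed to 7.11 to 9.82 CPM in BS2 and 1109.9 to 2598 CPM in BS6. The libraries labelled SB2 and BS6 thus held bone transcripts with few neuronal ones, and those labelled SB4 and BS2 held brain transcripts with almost none of bone. None of these bone markers was at 0 in any library. Of the 8 neuron markers, Nefm was at 0 in BS6 replicate 1 and Gad1 in BS6 replicate 3. Whether labels were exchanged was not tested.

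Microtubules are hollow tubes of α- and β-tubulin pairs, and γ-tubulin starts their growth. A mammal has several genes for each tubulin, the isotypes, whose proteins are close in sequence and whose use differs between cell types. Neurons fill their axons with stable microtubules, along which kinesin motors carry vesicles, mitochondria and RNA. Dividing cells rebuild the network into a spindle, which another set of kinesins pushes apart and shortens. The members were therefore read as classes by known role: 14 neuronal paralogs, 11 mitotic kinesins, 6 general tubulins, 9 general transport kinesins, 6 kinesins tied to cilia, 2 tubulins of restricted lineages and 3 other kinesins.

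Total counts ranged from 14126082 to 18972654 per library, and a gene with 0 counts could still have a level of up to 3 counts, which is 0.158 to 0.217 CPM. Such limits cover counting error only. Of the 51 members, 50 passed the filter on low counts in both comparisons over days. Kif28 did not, with at most 0.459 CPM in any library. A member counted as a DEG, and is here said to be called, where edgeR gave an adjusted p below 0.05 with a log2 fold change above 1 or below -1. SB4 against SB2 gave 21 members higher and 19 lower of 50, where 27.8% and 28.6% of all tested genes were called higher and lower. BS6 against BS2 gave 18 members higher and 18 lower of 50, where the shares of all tested genes were 29% and 26.5%. Called members were thus frequent in both comparisons, in data in which called genes were frequent throughout. The median log2 fold change of the members was 0.09 and -0.12, beside -0.01 and 0.02 over all tested genes, so the members as a whole had no common direction. Within each comparison the called neuronal paralogs all moved in 1 direction and the mitotic kinesins in the other.

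**Figure D1:**
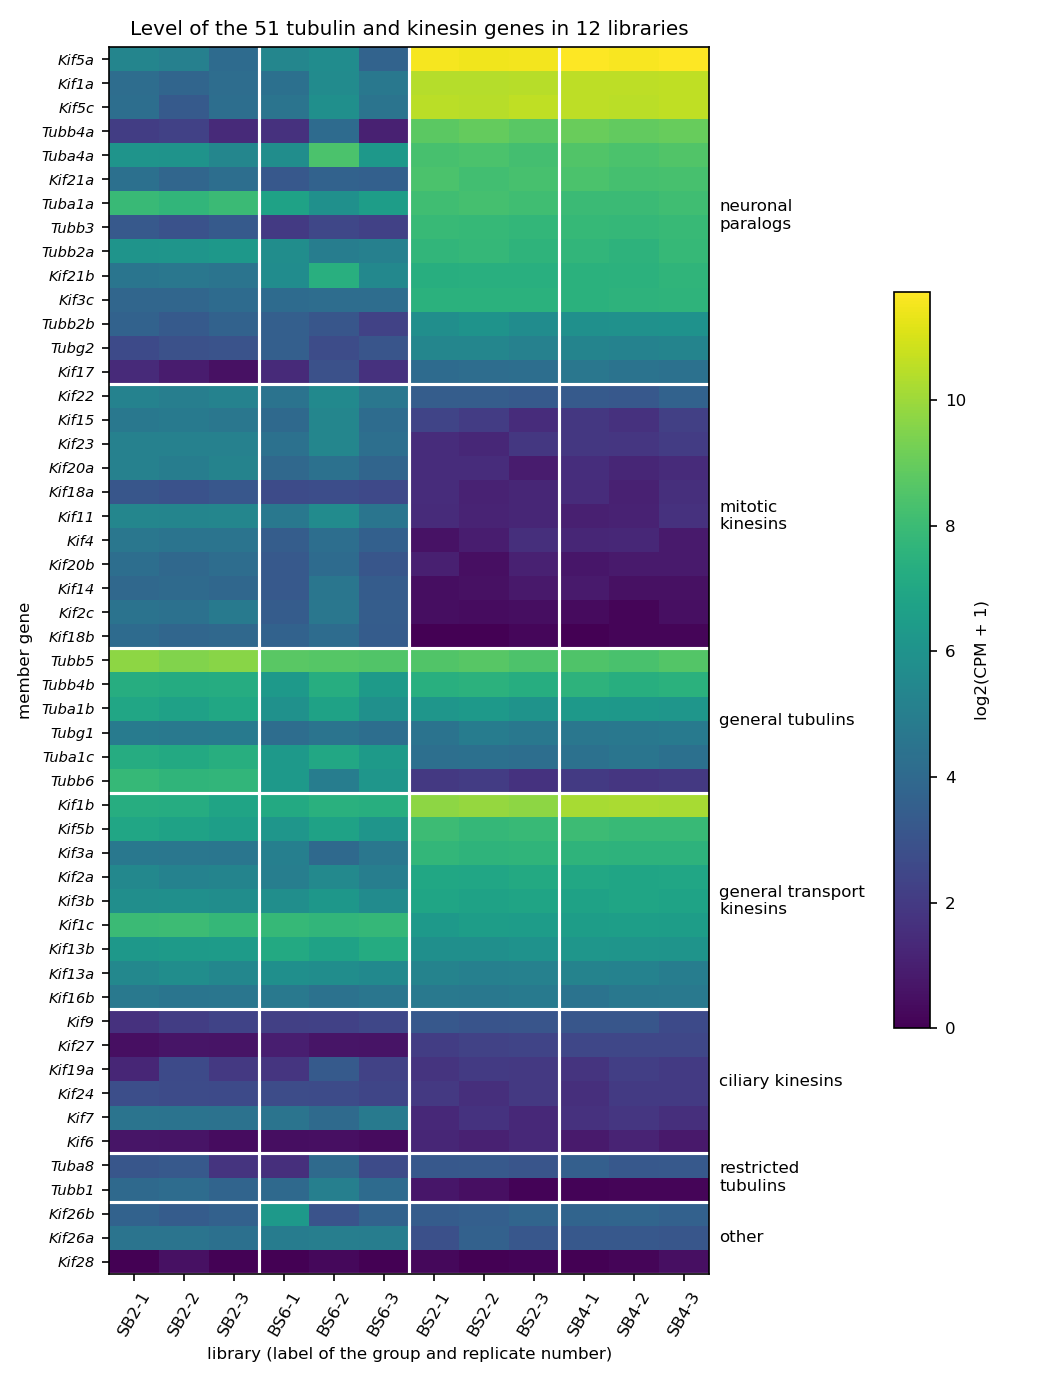
Level of each of the 51 members (rows, by class) in each of the 12 libraries (columns, replicate number after the group label), as log2(CPM + 1). Neuronal paralogs are bright in the columns labelled BS2 and SB4 and mitotic kinesins are bright in those labelled SB2 and BS6, and within the class of neuronal paralogs Tuba4a and Kif21b in BS6 replicate 2 stand out.

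Neuronal paralogs were higher in SB4 than in SB2 for 13 of 14 genes, with a median log2 fold change of 3.98, and lower in BS6 than in BS2 for 12 of 14, with a median of -3.15. In bulk tissue, fewer cells of a type and less RNA per cell cannot be told apart. Neuron markers moved with this class, by a median log2 fold change of 8.13 in SB4 against SB2 and -7.23 in BS6 against BS2, and their part in the result was not tested. Summed over the class, the level was 474 to 537 CPM in SB2, 347 to 822 CPM in BS6, 7888 to 8113 CPM in BS2 and 8350.2 to 8808 CPM in SB4.

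Among the neuronal β-tubulins, Tubb3 (ENSMUSG00000062380, chr8:123411424-123422015 in GENCODE M21, GRCm38), the isotype used as a marker of neurons, was at 8.58, 6.82 and 8.95 CPM in SB2, 2.94, 4.57 and 3.75 in BS6, 233, 232 and 215 in BS2, and 228, 223 and 238 in SB4. The values of SB2 and BS6 lay far below all those of BS2 and SB4 (log2 fold change 4.83 ± 0.10, adjusted p = 3.34e-12 in SB4 against SB2, and log2 fold change -5.91 ± 0.19, adjusted p = 3.60e-06 in BS6 against BS2). Tubb4a (chr17:57080066-57087782), a β-tubulin of brain that is abundant in oligodendrocytes, was at 3.41, 3.74 and 1.63 CPM in SB2, 2.2, 16.1 and 1.1 in BS6, 434, 491 and 416 in BS2, and 524, 474 and 508 in SB4. It had the largest log2 fold change of the called members higher in SB4 than in SB2, 7.43 ± 0.21 (adjusted p = 3.52e-09). In BS6 against BS2 it was lower by a log2 fold change of -6.11 ± 1.05 (adjusted p = 0.00192), with a wide error, since BS6 replicate 2 was several times above both other BS6 libraries. Without that library it was -8.07 (adjusted p = 9.97e-09). The 6 oligodendrocyte markers moved with Tubb4a, from 109.9 to 208 CPM in SB2 and 125 to 311 CPM in BS6 to 2685 to 3006 CPM in BS2 and 2929.8 to 3955 CPM in SB4, and their part was not tested.

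The pair Tubb2a and Tubb2b, neighbouring genes on chromosome 13 that encode nearly the same protein, differed less between the groups. Tubb2a was at 65.2, 68.2 and 73.8 CPM in SB2, 52.4, 30.6 and 33.2 in BS6, 210.3, 226 and 196 in BS2, and 208, 191 and 227 in SB4. Tubb2b, which is needed by migrating neurons of the developing cortex, was at 11.7, 8.86 and 12 CPM in SB2, 10.7, 7.82 and 4.01 in BS6, 54.8, 64.2 and 50.1 in BS2, and 57.3, 59.3 and 61.5 in SB4. For both genes every library labelled SB2 or BS6 lay below every one labelled BS2 or SB4, and the log2 fold changes were 1.61 ± 0.08 and 2.46 ± 0.11 in SB4 against SB2 (adjusted p = 5.14e-09 and 2.39e-09). For BS6 against BS2 they were -2.44 ± 0.23 and -2.91 ± 0.35 (adjusted p = 1.15e-04 and 3.87e-04). Tubg2, the γ-tubulin gene of higher use in brain, was at 5.23 to 10.5 CPM in SB2 and BS6 and at 34.2 to 40.9 CPM in BS2 and SB4 (log2 fold changes 2.61 and -2.29, both called).

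Per kilobase of exon, the neuronal kinesin Kif5a had the highest level of all members in BS2 and SB4, 417 and 465 CPM per kilobase. Kif5a (chr10:127225696-127263348), a neuronal heavy chain of kinesin-1, the motor of fast axonal transport, was at 39.4, 33.3 and 16.1 CPM in SB2, 40, 50.8 and 12.2 in BS6, 3034, 2807 and 2900.2 in BS2, and 3361, 3124 and 3258 in SB4. Kif1a (chr1:93015464-93101951), which carries the precursors of synaptic vesicles, was at 17.2, 13.1 and 17.3 CPM in SB2, 18.8, 48.9 and 24.9 in BS6, 1368, 1356 and 1388 in BS2, and 1476, 1503 and 1550.0 in SB4. Kif5c, the other kinesin-1 heavy chain of neurons, was at 17.7, 8.86 and 18 CPM in SB2, 21.9, 56.8 and 21.4 in BS6, 1455, 1385 and 1521 in BS2, and 1506, 1446 and 1551 in SB4. No library labelled SB2 or BS6 came near those labelled BS2 or SB4 for any of these 3 genes. Their log2 fold changes in SB4 against SB2 were 6.79 ± 0.39, 6.58 ± 0.13 and 6.66 ± 0.29 (adjusted p = 1.52e-05, 2.55e-12 and 8.72e-07). In BS6 against BS2 they were -6.41 ± 0.60, -5.47 ± 0.42 and -5.44 ± 0.48 (adjusted p = 1.23e-04, 5.25e-05 and 9.39e-05). Without BS6 replicate 2 that of Kif5c was -6.06. Kif3c, a kinesin-2 motor of neurons, was at 13.6, 13.6 and 16 CPM in SB2, 15.9, 17.4 and 17.2 in BS6, 176, 175 and 180.1 in BS2, and 176, 187 and 195 in SB4. The spread of Kif3c within each group was small, and it was called in both comparisons (3.70 ± 0.09 and -3.39 ± 0.09). Kif21a, a motor that slows microtubule growth in axons, had log2 fold changes of 4.26 and -4.90. Kif17, a dendritic motor that carries a glutamate receptor subunit, was at 0.423 to 6.5 CPM in SB2 and BS6 and 15.9 to 24 CPM in BS2 and SB4 (log2 fold changes 4.46 and -2.30). The mean of Kif17 in BS6 was 3.43 CPM with BS6 replicate 2 and 1.9 CPM without it.

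Of the neuronal paralogs, 3 were called in only 1 of the comparisons over days. Tuba1a, the main α-tubulin of young neurons, was at 244, 209 and 256 CPM in SB2, 108, 57.8 and 89.9 in BS6, 279.6, 305 and 274 in BS2, and 250, 253 and 277 in SB4. The libraries labelled SB2 lay close to those labelled SB4 and BS2, and only those labelled BS6 were low, so that Tuba1a was called in BS6 against BS2 (log2 fold change -1.75 ± 0.23, adjusted p = 5.82e-04) and not in SB4 against SB2 (log2 fold change 0.15 ± 0.09, adjusted p = 0.124). Tuba4a, an α-tubulin whose gene does not encode the last tyrosine of the others, was at 66.8, 63.3 and 40.7 CPM in SB2, 52.8, 340.5 and 74.5 in BS6, 312, 333 and 293 in BS2, and 373, 337 and 368 in SB4. Kif21b, a relative of Kif21a found in neurons and lymphoid tissue, was at 22.7, 24.1 and 21.9 CPM in SB2, 51.4, 167 and 43.9 in BS6, 162, 168 and 167 in BS2, and 179, 186 and 200.3 in SB4. For both genes BS6 replicate 2 reached the range of BS2 and SB4 while the other BS6 libraries stayed low. Tuba4a and Kif21b were called in SB4 against SB2 (2.67 ± 0.18 and 3.05 ± 0.08, adjusted p = 4.71e-06 and 1.77e-11) and not in BS6 against BS2 (-1.0 ± 0.69 and -0.92 ± 0.51, adjusted p = 0.226 and 0.143). Without BS6 replicate 2 their log2 fold changes in BS6 against BS2 were -2.29 and -1.79 (adjusted p = 2.75e-06 and 1.31e-07), and all 14 neuronal paralogs were called lower.

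BS6 replicate 2 stood apart from the other BS6 libraries in its cell markers. The neutrophil lineage markers, 5 of 7 looked for, summed to 24262 CPM there, against 1378 and 3289 CPM in replicates 1 and 3. The 5 fibrous matrix markers summed to 42643 CPM, against 138849 and 176715 CPM. Neuron markers in it reached 137 CPM, far from the 8223 to 8320.3 CPM of BS2, although Tuba4a and Kif21b lay within the range of BS2 and SB4. Over the 51 members, 35 were higher in this library than in both other BS6 libraries. The share of all genes was not determined, so this count is no result about the members. Over all genes, replicate 2 differed from replicates 1 and 3 by a chi-square per gene of 198 and 213. Between replicates 1 and 3 it was 34.5. The part of this library's cell content in the member values was not tested.

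**Figure D2:**
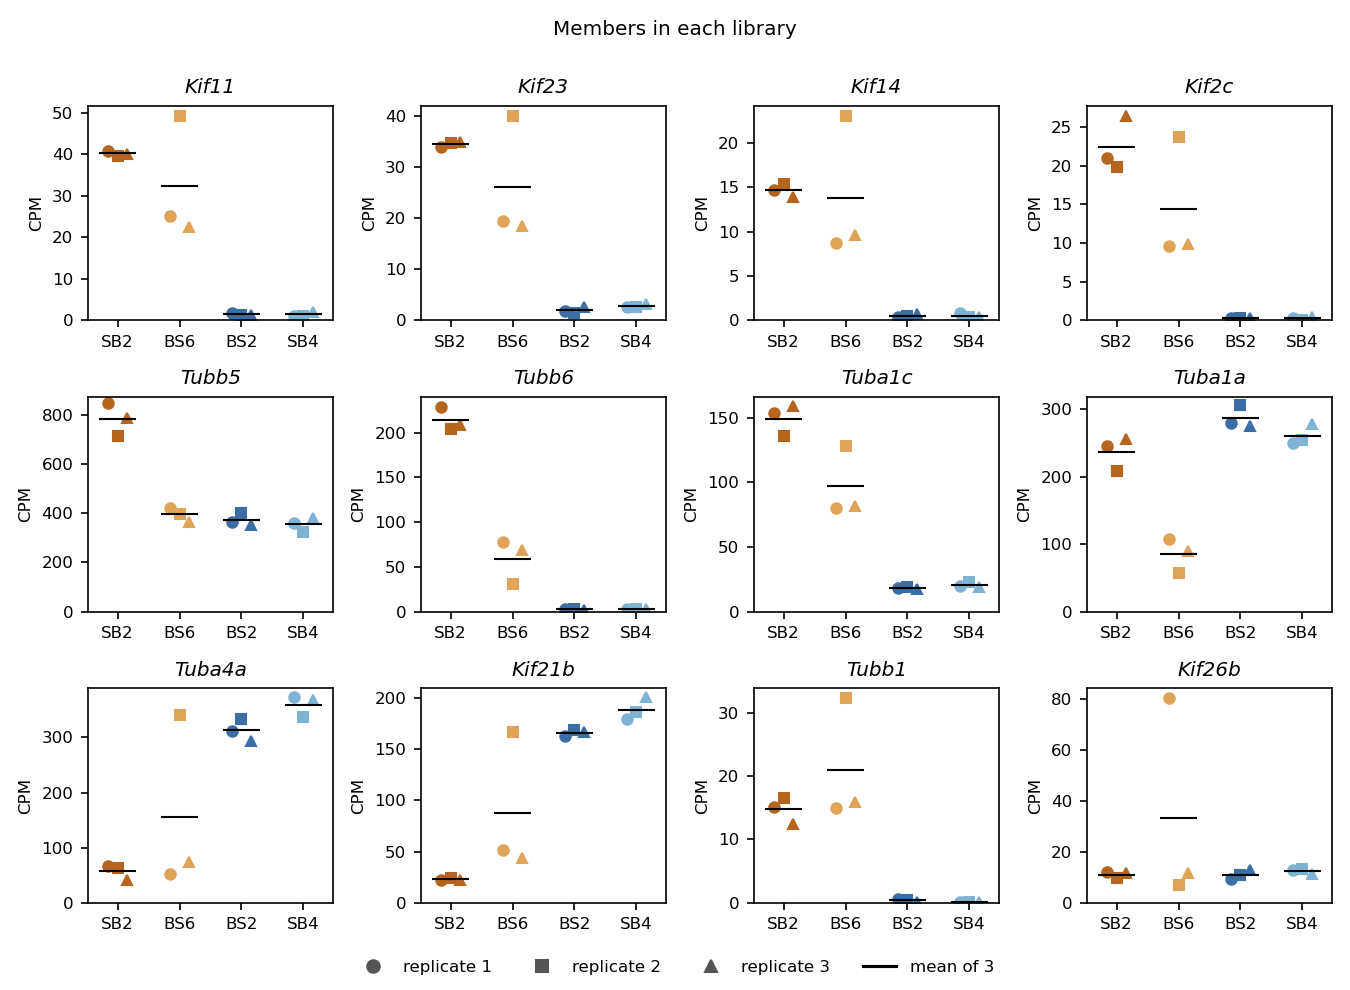
Level of 12 members in each library in CPM, with the groups on the horizontal axis, a marker shape for each replicate number and a line at the mean of 3. Mitotic kinesins are near 0 in BS2 and SB4 and highest among BS6 libraries in replicate 2, which is also where Tuba4a and Kif21b reach the level of BS2 and SB4, and Kif26b is high in BS6 replicate 1 alone.

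Mitotic kinesins moved the other way. All 11 were lower in SB4 than in SB2, with a median log2 fold change of -4.34, and all 11 were higher in BS6 than in BS2, with a median of 3.67. Their summed level was 255 to 274 CPM in SB2, 148 to 299 CPM in BS6, 21 to 23.5 CPM in BS2 and 19.5 to 27.1 CPM in SB4. The 16 division genes that are no kinesins, such as Mki67 and Top2a, were also lower in SB4 than in SB2 for 16 of 16 (median log2 fold change -6.25) and higher in BS6 than in BS2 for 16 of 16 (6.11, or 6.00 with the 2 genes whose BS2 libraries were at or under 3 counts set to their bound). Markers of marrow cells moved with this class, and all of those tested were called. So did those of osteoblasts and osteocytes, fibrous matrix, macrophages and skeletal muscle, also all called (medians -6.99, -12.3, -2.19 and -9.32 in SB4 against SB2). Neutrophil lineage markers summed to 818 to 1454 CPM in SB2, 1378 to 24262 CPM in BS6, 0.652 to 1.37 CPM in BS2 and 1.97 to 4.2 CPM in SB4, with the highest level in BS6 replicate 2. The 4 erythroid markers summed to 434 to 1631 CPM in SB2, 2849.8 to 4709 CPM in BS6, 58.5 to 174 CPM in BS2 and 55.8 to 111 CPM in SB4, and the 3 markers of the B lineage to 13.9 to 21.5 CPM in SB2, 26.1 to 56.9 CPM in BS6, 0.446 to 0.94 CPM in BS2 and 0.356 to 0.633 CPM in SB4. Unlike the neutrophil sum, the B lineage sum was lowest among BS6 libraries in replicate 2. In SB2 against BS6 the median log2 fold change was 0.44 for the mitotic kinesins. It was -3.02 for neutrophil lineage, -2.43 for erythroid and -1.05 for B lineage markers. The part of any of these cells in the result was not tested.

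Spindle assembly needs Kif11, which slides the spindle poles apart, and Kif15, which can stand in for it. Kif11 (chr19:37376403-37421859) was at 40.9, 39.7 and 40.1 CPM in SB2, 25.1, 49.3 and 22.6 in BS6, 1.72, 1.21 and 1.37 in BS2, and 1.07, 1.16 and 2.14 in SB4. Kif15 (chr9:122951046-123018733) was at 25, 26.7 and 23.8 CPM in SB2, 15.1, 41.1 and 16.7 in BS6, 4.27, 3.19 and 1.81 in BS2, and 2.77, 2.16 and 3.62 in SB4. Both were several times higher in every library labelled SB2 or BS6 than in any labelled BS2 or SB4, and Kif15 kept more of its level in BS2 and SB4. Kif11 had log2 fold changes of -4.75 ± 0.18 in SB4 against SB2 and 4.48 ± 0.39 in BS6 against BS2 (adjusted p = 5.58e-10 and 9.31e-05). Kif15 had -3.13 ± 0.17 and 2.96 ± 0.52 (adjusted p = 9.73e-09 and 0.00204). Without BS6 replicate 2 the latter value of Kif15 was 2.35.

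Chromosome movement is the work of Kif2c, Kif18a, Kif18b, Kif22 and Kif4. Kif2c, which removes tubulin from microtubule ends at the kinetochore, was at 21, 19.8 and 26.4 CPM in SB2, 9.67, 23.7 and 9.89 in BS6, 0.356, 0.319 and 0.362 in BS2, and 0.284, 0.106 and 0.384 in SB4. Kif18b (chr11:102905529-102925124), which limits the length of astral microtubules, was at 16.1, 13.8 and 14.7 CPM in SB2, 11.8, 16.4 and 9.5 in BS6, 0, 0 and 0.145 in BS2, and 0, 0.106 and 0.11 in SB4. No library labelled BS2 or SB4 had more than 3 counts of Kif18b, and its mean was at least 83.1-fold lower in SB4 than in SB2 and at least 64.4-fold higher in BS6 than in BS2, with the limit of 3 counts taken per library. Kif2c was lower in SB4 than in SB2 by -6.41 ± 0.28 and higher in BS6 than in BS2 by 5.35 ± 0.51 on the log2 scale (adjusted p = 1.34e-09 and 1.35e-04). Kif2c had only 2 to 7 counts in any library labelled SB4 or BS2, so the size of these changes is uncertain. Kif22, a motor bound to chromosome arms, was at 36, 31.8 and 35.7 CPM in SB2, 21.1, 45.6 and 24 in BS6, 9.9, 10.1 and 8.83 in BS2, and 9.1, 8.23 and 11.8 in SB4. Kif4, which shapes chromosomes and the spindle midzone, was at 24.2, 21.6 and 21.4 CPM in SB2, 10, 17.8 and 10.9 in BS6, 0.474, 0.893 and 1.95 in BS2, and 1.42, 1.48 and 0.822 in SB4. Kif22 kept the largest part of its level in BS2 and SB4 and had the smallest log2 fold changes (-1.81 ± 0.13 and 1.65 ± 0.31, adjusted p = 1.57e-07 and 0.00293), and Kif4 changed by -4.16 ± 0.19 and 3.57 ± 0.52. Without BS2 replicate 3 Kif4 changed by 4.22 in BS6 against BS2. Kif18a, which aligns chromosomes, was at 4.91 to 8.17 CPM in SB2 and BS6 and 1.11 to 1.97 CPM in BS2 and SB4.

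The cut between daughter cells uses Kif23, Kif20a, Kif20b and Kif14. Kif23, part of the centralspindlin complex, was at 33.9, 34.7 and 35 CPM in SB2, 19.5, 40.1 and 18.6 in BS6, 1.78, 1.47 and 2.68 in BS2, and 2.7, 2.59 and 3.18 in SB4. Kif20a, which brings regulators to the midzone, was at 34.4, 29.9 and 37 CPM in SB2, 14.7, 19.7 and 13.1 in BS6, 1.84, 1.79 and 0.868 in BS2, and 1.85, 1.37 and 1.75 in SB4. Kif14, a partner of citron kinase, was at 14.7, 15.4 and 13.9 CPM in SB2, 8.67, 23 and 9.63 in BS6, 0.356, 0.446 and 0.723 in BS2, and 0.782, 0.422 and 0.439 in SB4. Each was higher in every library labelled SB2 or BS6 than in any labelled BS2 or SB4, and in Kif20a the libraries labelled SB2 also lay above all those labelled BS6. Log2 fold changes in SB4 against SB2 were -3.59 ± 0.12 for Kif23, -4.34 ± 0.15 for Kif20a and -4.76 ± 0.23 for Kif14 (adjusted p = 1.40e-10, 2.09e-10 and 3.19e-09). The values for BS6 against BS2 were 3.73 ± 0.42, 3.39 ± 0.33 and 4.76 ± 0.55 (adjusted p = 2.78e-04, 1.29e-04 and 3.05e-04). Kif20b had log2 fold changes of -4.43 and 3.67, both called.

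Within BS6, all 11 mitotic kinesins were highest in replicate 2, at a median of 2.02 times the mean of both other libraries (1.15 to 2.59 times). Their sum was 299 CPM in that library, against 149.6 and 148 CPM. Without it all 11 were still called higher in BS6 than in BS2, with a median log2 fold change of 3.28. The share of all genes that were highest in BS6 replicate 2 was not determined.

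Since the mitotic kinesins moved together, their promoters are shown. RefSeq promoters (GRCm38.p6, 250 bases before to 50 after the start site, the most 5′ entry of each gene) were matched by symbol for 41 of the 51 members, 10 of them mitotic kinesins and 11 neuronal paralogs. The CHR, an element of cell cycle promoters, was searched as TTTGAA on both strands (TTCAAA on the other strand). It was in 9 of 10 mitotic kinesin promoters, in 0 of 11 of the neuronal paralogs and in 18.2% of 27025 promoters of all genes. Kif18a was the exception among the mitotic kinesins. Outside both classes, the CHR was in the promoters of Kif27, Kif26b and Tubb4b. Kif27 moved opposite to the mitotic kinesins (log2 fold changes 3.18 and -2.47), and Kif26b and Tubb4b were called in neither comparison. Between 100 bases before and 50 after the start site the CHR was in 7 of 10 mitotic kinesin promoters, against 8.10% of all promoters. Kif27 and Kif26b also had it there. Below, each of the 7 mitotic kinesins has its match in capitals with 10 bases on each side, written on the gene's strand. Kif20b is shown at the first of its pair of adjoining matches.
Kif11, chr19:37376353-37376378, plus strand: gtctccatttTTCAAAattgaggcgc
Kif15, chr9:122951052-122951077, plus strand: gggcgccaaaTTCAAAtctgcggcca
Kif22, chr7:127042422-127042447, minus strand: gccccggtaaTTCAAAagagagaagc
Kif23, chr9:61946782-61946807, minus strand: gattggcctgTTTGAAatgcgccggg
Kif18b, chr11:102925106-102925131, minus strand: gaccggctagTTTGAAcgcgccgcgc
Kif20b, chr19:34922355-34922380, plus strand: gccgccattgTTTGAAtttgaaaacc
Kif4, chrX:100626074-100626099, plus strand: ctgggatcaaTTTGAAacttggcggt
The matches of Kif11, Kif15 and Kif22 began 17 to 19 bases before the start site, in the reverse direction. Those of the other 4 genes began at positions 3 to 20, in the forward direction, where the count includes the base of the start site itself. Where the RefSeq and GENCODE start sites lie within 500 bases of each other, the CHR was in 7 of 8 mitotic kinesin promoters and 0 of 9 of the neuronal paralogs. A match is a description of the letters and not a test of binding.

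The CCAAT box, which often lies next to a CHR, was searched as CCAAT on both strands (ATTGG on the other strand), and it can share at most 1 letter with a CHR. It was in 6 of 10 mitotic kinesin promoters, 2 of 11 of the neuronal paralogs and 38.0% of all promoters. The 16 division genes that are no kinesins had 14 entries, of which 10 held the CHR and 13 a CCAAT box. The 120 bases before the start site are given for 5 mitotic kinesins and 2 neuronal paralogs, as examples with and without a match, and both motifs are in capitals.
Kif11, chr19:37376262-37376381, plus strand: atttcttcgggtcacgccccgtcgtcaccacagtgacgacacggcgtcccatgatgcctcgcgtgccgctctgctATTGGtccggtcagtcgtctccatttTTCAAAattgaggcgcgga
Kif18b, chr11:102925125-102925244, minus strand: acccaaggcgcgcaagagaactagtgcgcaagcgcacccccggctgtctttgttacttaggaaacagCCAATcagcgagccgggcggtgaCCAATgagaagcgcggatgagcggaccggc
Kif23, chr9:61946800-61946919, minus strand: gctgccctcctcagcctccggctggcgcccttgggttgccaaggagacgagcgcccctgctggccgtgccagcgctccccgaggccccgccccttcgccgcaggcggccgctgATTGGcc
Kif18a, chr2:109280618-109280737, plus strand: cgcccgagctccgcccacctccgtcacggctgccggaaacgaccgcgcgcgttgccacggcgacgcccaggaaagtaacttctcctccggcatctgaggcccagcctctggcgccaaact
Kif20b, chr19:34922238-34922357, plus strand: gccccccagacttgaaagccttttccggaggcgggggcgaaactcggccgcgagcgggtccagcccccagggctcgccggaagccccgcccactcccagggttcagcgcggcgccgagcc
Kif5c, chr2:49619166-49619285, plus strand: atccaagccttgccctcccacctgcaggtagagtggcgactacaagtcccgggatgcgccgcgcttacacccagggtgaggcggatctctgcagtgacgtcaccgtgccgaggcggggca
Kif3c, chr12:3365012-3365131, plus strand: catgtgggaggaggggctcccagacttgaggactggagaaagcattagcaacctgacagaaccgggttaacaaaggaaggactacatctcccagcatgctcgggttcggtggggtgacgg
In Kif11 a reverse CCAAT box stands upstream of the reverse CHR, Kif18b has 2 CCAAT boxes in the forward direction, and Kif23 has 1 reverse box close to its start site. The stretches of Kif18a, Kif20b, Kif5c and Kif3c hold neither motif. The neuronal paralogs with a CCAAT box, Tuba1a and Tubb3, are not shown, and the genes printed are no sample of their classes.

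General tubulins, which most cells use, differed among themselves. Of 6, 3 were called lower in SB4 than in SB2 (median log2 fold change -0.88), and 2 were called higher in BS6 than in BS2 (0.08). Tubb6, a β-tubulin of low use in brain, was at 229, 204 and 209 CPM in SB2, 78.1, 30.5 and 69.4 in BS6, 2.84, 3.25 and 2.24 in BS2, and 2.92, 2.64 and 2.8 in SB4. Tubb6 in SB2 was above all BS6 libraries, and both groups were far above BS2 and SB4 (log2 fold change -6.25 ± 0.09, adjusted p = 1.02e-12 in SB4 against SB2, and log2 fold change 4.41 ± 0.42, adjusted p = 1.30e-04 in BS6 against BS2). Tuba1c, a widely used α-tubulin, was at 154, 136 and 159 CPM in SB2, 80.1, 129 and 82.1 in BS6, 18.5, 19.3 and 17.7 in BS2, and 19.5, 22.6 and 19.3 in SB4. It fell from SB2 to SB4 (-2.85 ± 0.09, adjusted p = 1.20e-10) and was higher in BS6 than in BS2 (2.39 ± 0.21, adjusted p = 9.03e-05). The 5 fibrous matrix markers moved with Tubb6 and Tuba1c, and all 5 were called in both comparisons. Their median log2 fold changes were -12.3 in SB4 against SB2 and 11.9 in BS6 against BS2. All tested markers of osteoblasts and osteocytes, marrow cells, macrophages and skeletal muscle were also called in these directions. Among BS6 libraries the fibrous matrix sum and Tubb6 were lowest in replicate 2, where Tuba1c was highest. The mean fibrous matrix sum was 89077 CPM in SB2 and 119402 CPM in BS6, and that of Tubb6 was 214 and 59.3 CPM. The part of these markers was not tested. Tubb5, the most widely used β-tubulin, was at 846, 712 and 786 CPM in SB2, 422, 398 and 365 in BS6, 365, 401 and 350.1 in BS2, and 362, 324 and 379 in SB4. The libraries labelled SB2 stood above the other 9, which overlapped, and Tubb5 was called lower in SB4 than in SB2 (-1.13 ± 0.09, adjusted p = 2.75e-07) and not called in BS6 against BS2 (0.09 ± 0.12, adjusted p = 0.513).

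The remaining 3 general tubulins were called in neither comparison. Tuba1b was at 119.8, 104 and 125 CPM in SB2, 60.4, 106 and 57.2 in BS6, 71.2, 80.2 and 63 in BS2, and 76.5, 74.6 and 70.6 in SB4. Tubb4b was at 158, 149 and 153 CPM in SB2, 78.1, 157 and 83.1 in BS6, 165, 182 and 157 in BS2, and 188, 159 and 179 in SB4. Tubg1, the γ-tubulin of most cells, was at 28.1, 25.4 and 27.4 CPM in SB2, 17.1, 21.9 and 17.8 in BS6, 20.9, 28.9 and 25.1 in BS2, and 23.7, 25.2 and 26.1 in SB4. Tuba1b was higher in every SB2 library than in any labelled BS2 or SB4, by less than the threshold of the call, and in Tubb4b and Tubg1 the libraries labelled SB2, BS2 and SB4 overlapped or nearly met. The log2 fold changes were -0.64 ± 0.08, 0.21 ± 0.07 and -0.09 ± 0.09 in SB4 against SB2, in the same order (adjusted p = 1.28e-05, 0.0186 and 0.338). In BS6 against BS2 they were 0.06 ± 0.26, -0.66 ± 0.28 and -0.40 ± 0.17 (adjusted p = 0.832, 0.0703 and 0.0716). Without BS6 replicate 2, where Tubb4b was about as high as in BS2, Tubb4b was called lower in BS6 than in BS2 (log2 fold change -1.05).

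The isotype mix was compared on the scale of CPM per kilobase of merged exons, as a share of the family's sum. Of the β-tubulins, Tubb5 took 51 ± 1.39% (SD, n = 3) in SB2, 49.4 ± 3.34% in BS6, 16.7 ± 0.136% in BS2 and 15.3 ± 0.40% in SB4. Tubb4a took 0.287 ± 0.117%, 1.13 ± 1.41%, 29.9 ± 0.595% and 32.4 ± 0.828% in the same order. The share of Tubb4a in BS6 rests on replicate 2, since it was 0.401%, 2.75% and 0.23% in replicates 1 to 3. Tubb3 took 0.943 ± 0.0975%, 0.835 ± 0.172%, 18.1 ± 0.812% and 17.7 ± 0.606%. The leading β-tubulin was thus Tubb5 in SB2 and BS6 and Tubb4a in BS2 and SB4, followed there by Tubb2a with 19.5 ± 0.15% and 18.6 ± 0.752%, and the shares of Tubb2a and Tubb3 in SB4 differed by less than their SDs added. This order turned on the length scaling, since without division by length Tubb4a was followed by Tubb5 (25.1% in BS2 and 23.1% in SB4), Tubb3 (15.3% and 15%) and then Tubb2a (14.2% and 13.6%). Tubb6 made up 19.1 ± 0.40% in SB2 and 10.3 ± 4.84% in BS6, and under 1% in BS2 and SB4.

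Of the α-tubulins, Tuba1a had the largest mean share per kilobase in each group, 47.4 ± 1.45% in SB2, 30.4 ± 15.2% in BS6, 54.2 ± 0.785% in BS2 and 49.1 ± 1.73% in SB4. Within BS6 this lead did not hold in every library, since Tuba1a took 42.1%, 13.1% and 35.9% in replicates 1 to 3. Tuba1c took 23.6 ± 0.339% and 24.5 ± 1.41% in SB2 and BS6, and 2.76 ± 0.0688% and 3.05 ± 0.368% in BS2 and SB4. Tuba4a took 5.62 ± 1.61% in SB2, 20.8 ± 14.9% in BS6, 28.8 ± 0.268% in BS2 and 33 ± 1.2% in SB4, and its share in BS6 was 10%, 37.7% and 14.5% in replicates 1 to 3. Without division by length Tuba4a was the leading α-tubulin in BS2, SB4 and BS6, with 44.9%, 49.7% and 31.3%, the last resting on BS6 replicate 2. For γ-tubulin, Tubg1 took 77.1 ± 3.08% in SB2 and 65.4 ± 9.93% in BS6, and Tubg2 took the larger share in BS2 and SB4, 66.5 ± 4.11% and 65.9 ± 1.47%. The α-tubulins summed to 276 ± 21.9, 175 ± 59.7, 293 ± 19.6 and 294 ± 9.02 CPM per kilobase in SB2, BS6, BS2 and SB4. The β-tubulins summed to 459.7 ± 27, 241 ± 24.5, 671 ± 47.8 and 696 ± 38.2 CPM per kilobase.

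**Figure D3:**
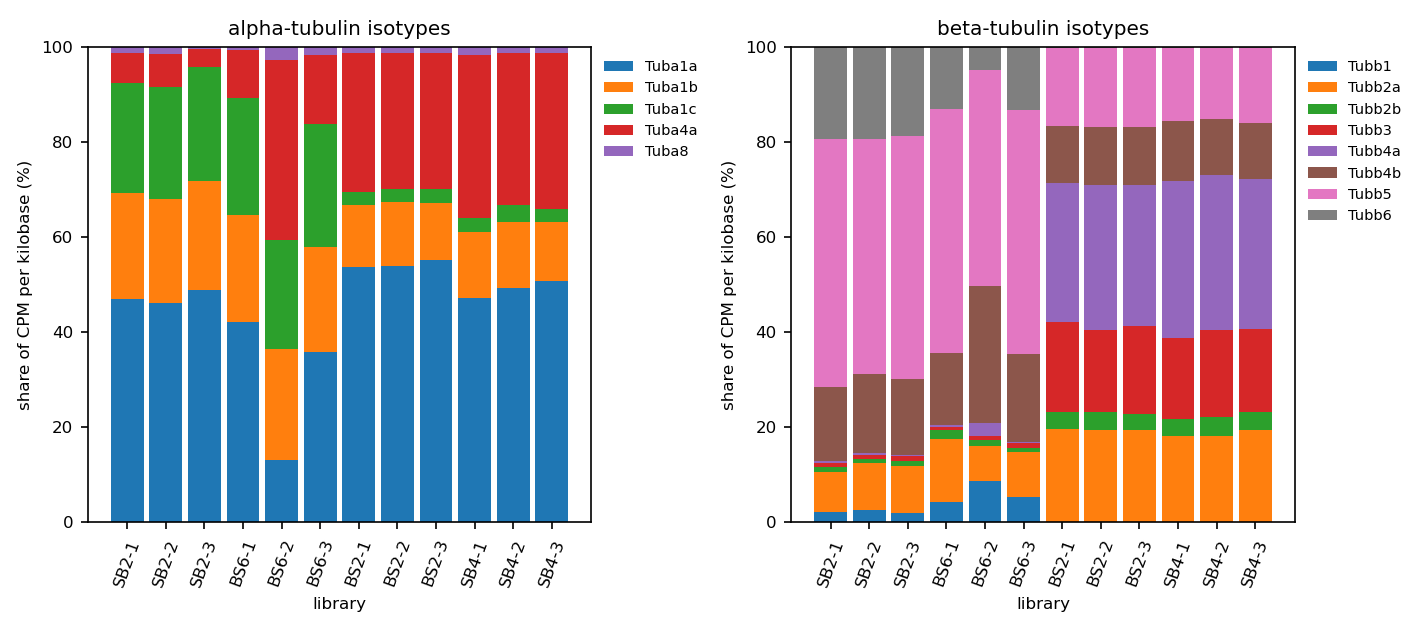
Share of each isotype in the summed CPM per kilobase of its family (%), α-tubulins on the left and β-tubulins on the right, as 1 stacked bar for each library. The bars of BS2 and SB4 look alike, with Tubb4a as the largest β-tubulin part, and those of SB2 and BS6 are led by Tubb5, with BS6 replicate 2 apart through a large Tuba4a part.

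General transport kinesins were split, with 5 higher and 1 lower of 9 in SB4 against SB2 (median log2 fold change 1.04) and 2 higher and 4 lower in BS6 against BS2 (-0.94). With upper-quartile factors or total counts only, 4 were called higher in SB4 against SB2 (medians 0.91 and 0.95). Kif5b, the kinesin-1 heavy chain of all tissues, was at 119.7, 106 and 92.4 CPM in SB2, 70.6, 106 and 67.8 in BS6, 265, 224 and 238 in BS2, and 258, 237 and 233 in SB4. It was higher in BS2 and SB4 by far less than its neuronal paralogs Kif5a and Kif5c (1.21 ± 0.09 in SB4 against SB2 and -1.57 ± 0.20 in BS6 against BS2). As a share of the 3 Kif5 genes per kilobase, Kif5b took 68.1 ± 2.91% in SB2, 53.6 ± 9.29% in BS6, 4.66 ± 0.248% in BS2 and 4.31 ± 0.185% in SB4, and Kif5a took 21 ± 6.02%, 23.7 ± 9.76%, 64.1 ± 0.854% and 65.9 ± 0.505%.

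The Kif1 genes had a like exchange. Kif1c, a motor of vesicle traffic in many cells, was at 208 to 258 CPM in SB2 and BS6 and 81.1 to 92.8 CPM in BS2 and SB4 (log2 fold changes -1.40 and 1.34, both called). Kif1b, which carries mitochondria and vesicles, was at 113 to 173 CPM in SB2 and BS6, 835 to 932 CPM in BS2 and 1164 to 1190.0 CPM in SB4 (log2 fold changes 3.08 and -2.47, both called). Per kilobase, Kif1c took 77.7 ± 1.17% of the 3 Kif1 genes in SB2 and 71.2 ± 5.4% in BS6, and Kif1a took 70.6 ± 1.43% in BS2 and 67.1 ± 0.543% in SB4. In the Kif2 pair, the mitotic Kif2c made up 45.7 ± 4.47% and 35.7 ± 6.95% in SB2 and BS6, and under 1% in BS2 and SB4, where nearly all was Kif2a, which trims microtubules in growing axons. Kif3a and Kif3b form the kinesin-2 motor that builds cilia, and Kif3b took 52.9 ± 0.928% of the Kif3 genes in SB2 and 54.1 ± 10.6% in BS6, against 19.9 ± 0.394% in BS2 and 20.1 ± 0.758% in SB4. Kif3a had log2 fold changes of 3.02 and -3.10, and Kif3b of 1.04 (called) and -0.94 (not called). The 1.04 of Kif3b was also the class median, which fell under the threshold of 1 with upper-quartile factors and with total counts only. The endosome motor Kif16b and the vesicle motor Kif13a were called in neither comparison, and Kif13b, a relative of Kif13a, was called higher in BS6 than in BS2 (1.17 ± 0.14) and not called in SB4 against SB2 (-0.25 ± 0.07).

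**Figure D4:**
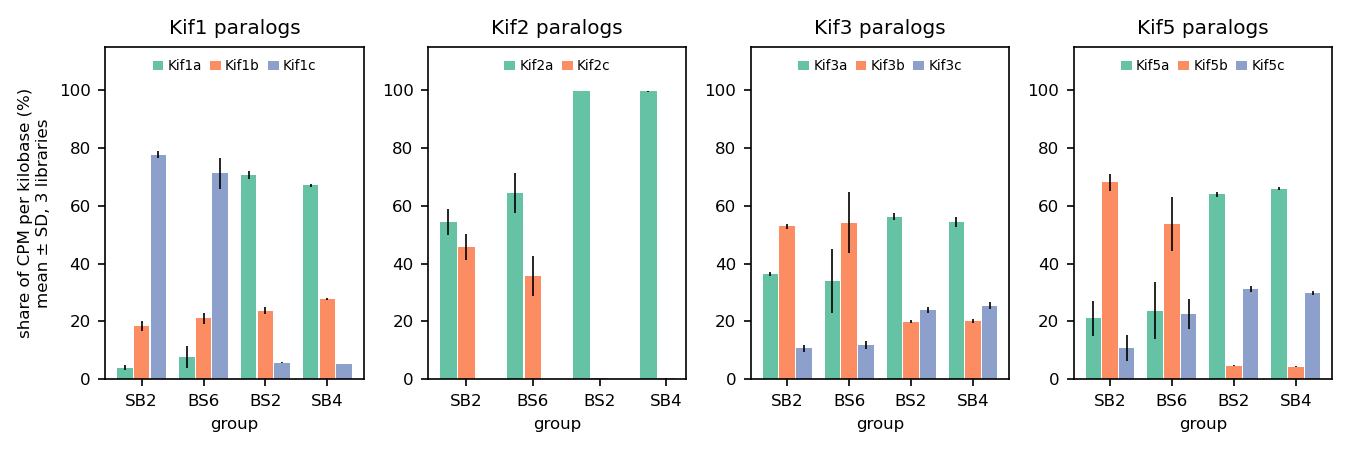
Share of each paralog in the summed CPM per kilobase of its kinesin family (%), as the mean and SD of 3 libraries for each of the 4 groups, with Kif1, Kif2, Kif3 and Kif5 in panels. Kif1a, Kif2a, Kif3a and Kif5a lead in BS2 and SB4, and Kif1c, Kif3b and Kif5b lead in SB2 and BS6.

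Kinesins tied to cilia had no common direction, with 3 higher and 2 lower of 6 in SB4 against SB2, and 1 higher and 2 lower in BS6 against BS2. The third call in SB4 against SB2 was Kif6, at a log2 fold change on the threshold (1.0 ± 0.41), and over the settings run the counts were 1 to 3 higher and 1 to 2 lower in SB4 against SB2, and 1 to 2 higher and 0 to 3 lower in BS6 against BS2. Kif7, which sits at the tip of the primary cilium and takes part in Hedgehog signalling, was at 21.6, 21.1 and 20.6 CPM in SB2, 21.7, 15.7 and 26.8 in BS6, 1.54, 2.3 and 1.52 in BS2, and 2.2, 2.59 and 1.97 in SB4. It was well above BS2 and SB4 in every library labelled SB2 or BS6 (log2 fold change -3.21 ± 0.15, adjusted p = 2.19e-09 in SB4 against SB2, and log2 fold change 3.58 ± 0.29, adjusted p = 5.98e-05 in BS6 against BS2). Kif27, a relative of Kif7 in motile cilia, went the other way, with 0.398 to 1.0 CPM in SB2 and BS6 and 3.44 to 4.69 CPM in BS2 and SB4 (log2 fold changes 3.18 and -2.47, both called). Kif6, Kif9 and Kif24 stayed under 10 CPM in every library, and Kif19a, which sets the length of motile cilia, was called in neither comparison. The 4 ependyma markers, a cell type with motile cilia, summed to at most 3.38 CPM in any library.

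Among the tubulins of restricted lineages, Tubb1, the β-tubulin of platelets and megakaryocytes, was at 15.2, 16.5 and 12.5 CPM in SB2, 14.9, 32.3 and 15.8 in BS6, 0.652, 0.383 and 0.0723 in BS2, and 0.0711, 0.106 and 0.11 in SB4. Every library labelled SB2 or BS6 was far above those labelled BS2 or SB4. No SB4 library had more than 3 counts of Tubb1, and its mean there was at least 82.5-fold lower than in SB2. Its log2 fold change in BS6 against BS2 was 5.75 ± 0.61 (adjusted p = 2.16e-04). Without BS2 replicate 1 it was 6.41. The megakaryocyte and platelet markers, 4 of 6 looked for, moved with it, from 2.68 to 5.1 CPM in BS2 and 3.23 to 4.59 CPM in SB4 to 176 to 199.7 CPM in SB2 and 207 to 359 CPM in BS6, and both were highest in BS6 replicate 2. Their part in the level of Tubb1 was not tested. Tuba8 was at 7.84, 8.6 and 2.42 CPM in SB2, 2.0, 15.6 and 5.43 in BS6, 8.24, 8.74 and 7.52 in BS2, and 10.5, 8.39 and 8.66 in SB4. The groups of Tuba8 overlapped and it was called in neither comparison (0.56 ± 0.42 and -0.09 ± 0.66, adjusted p = 0.25 and 0.909). Without BS6 replicate 2, which held the highest Tuba8 level, it was called lower in BS6 than in BS2 (-1.12, adjusted p = 0.0216).

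The kinesins of the Kif26 type, which bind microtubules without walking, differed from each other. Kif26b, needed for kidney development, was at 12, 9.71 and 11.6 CPM in SB2, 80.7, 7.0 and 11.8 in BS6, 9.48, 10.8 and 13 in BS2, and 12.7, 13.3 and 11.5 in SB4. It was high in BS6 replicate 1 alone, the other 11 libraries lay between 7.0 and 13.3 CPM, and it was called in neither comparison (0.18 ± 0.13 and 1.58 ± 0.90, adjusted p = 0.211 and 0.155). Kif26a was at 18.9 to 21.7 CPM in SB2, 29.6 to 30.8 CPM in BS6, 6.22 to 11.3 CPM in BS2 and 7.73 to 8.46 CPM in SB4, and was called in both comparisons (-1.34 and 1.82).

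Other genes of the microtubule network were taken from lists by role. Of 9 neuronal microtubule-associated proteins, such as Map2 and Mapt, 9 were higher in SB4 than in SB2 (median log2 fold change 5.72) and 9 were lower in BS6 than in BS2 (-6.36). Of 9 tested kinesin light chains, adaptors and C-kinesins, 6 were higher and 1 lower in SB4 against SB2 (2.18), and 1 was higher and 5 lower in BS6 against BS2 (-2.07). Of 8 genes of the γ-tubulin complex, which starts microtubules in all cells, 2 were higher and 1 lower in SB4 against SB2 and 1 was higher and 2 lower in BS6 against BS2, with medians of 0.22 and -0.33. Of 5 tubulin folding cofactors 1 was called lower in SB4 against SB2, and the medians were -0.06 and -0.31.

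The pattern over days was opposite under both labels. The comparisons SB4 against SB2 and BS6 against BS2 share no library, and 34 of 50 members were called in both, all 34 in opposite directions. Of all 16953 genes tested in both, 49.3% were called in both, and 99.8% of these in opposite directions. The difference between both changes was tested over all 12 libraries, and passed the same thresholds for 22 members in the higher and 20 in the lower direction, where 35.8% and 37.8% of all genes did. All 14 neuronal paralogs were among the former and all 11 mitotic kinesins among the latter. Of the 8 members called in neither comparison, 3 were general tubulins (Tuba1b, Tubb4b and Tubg1), and the others were Kif13a, Kif16b, Kif19a, Kif26b and Tuba8.

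**Figure D5:**
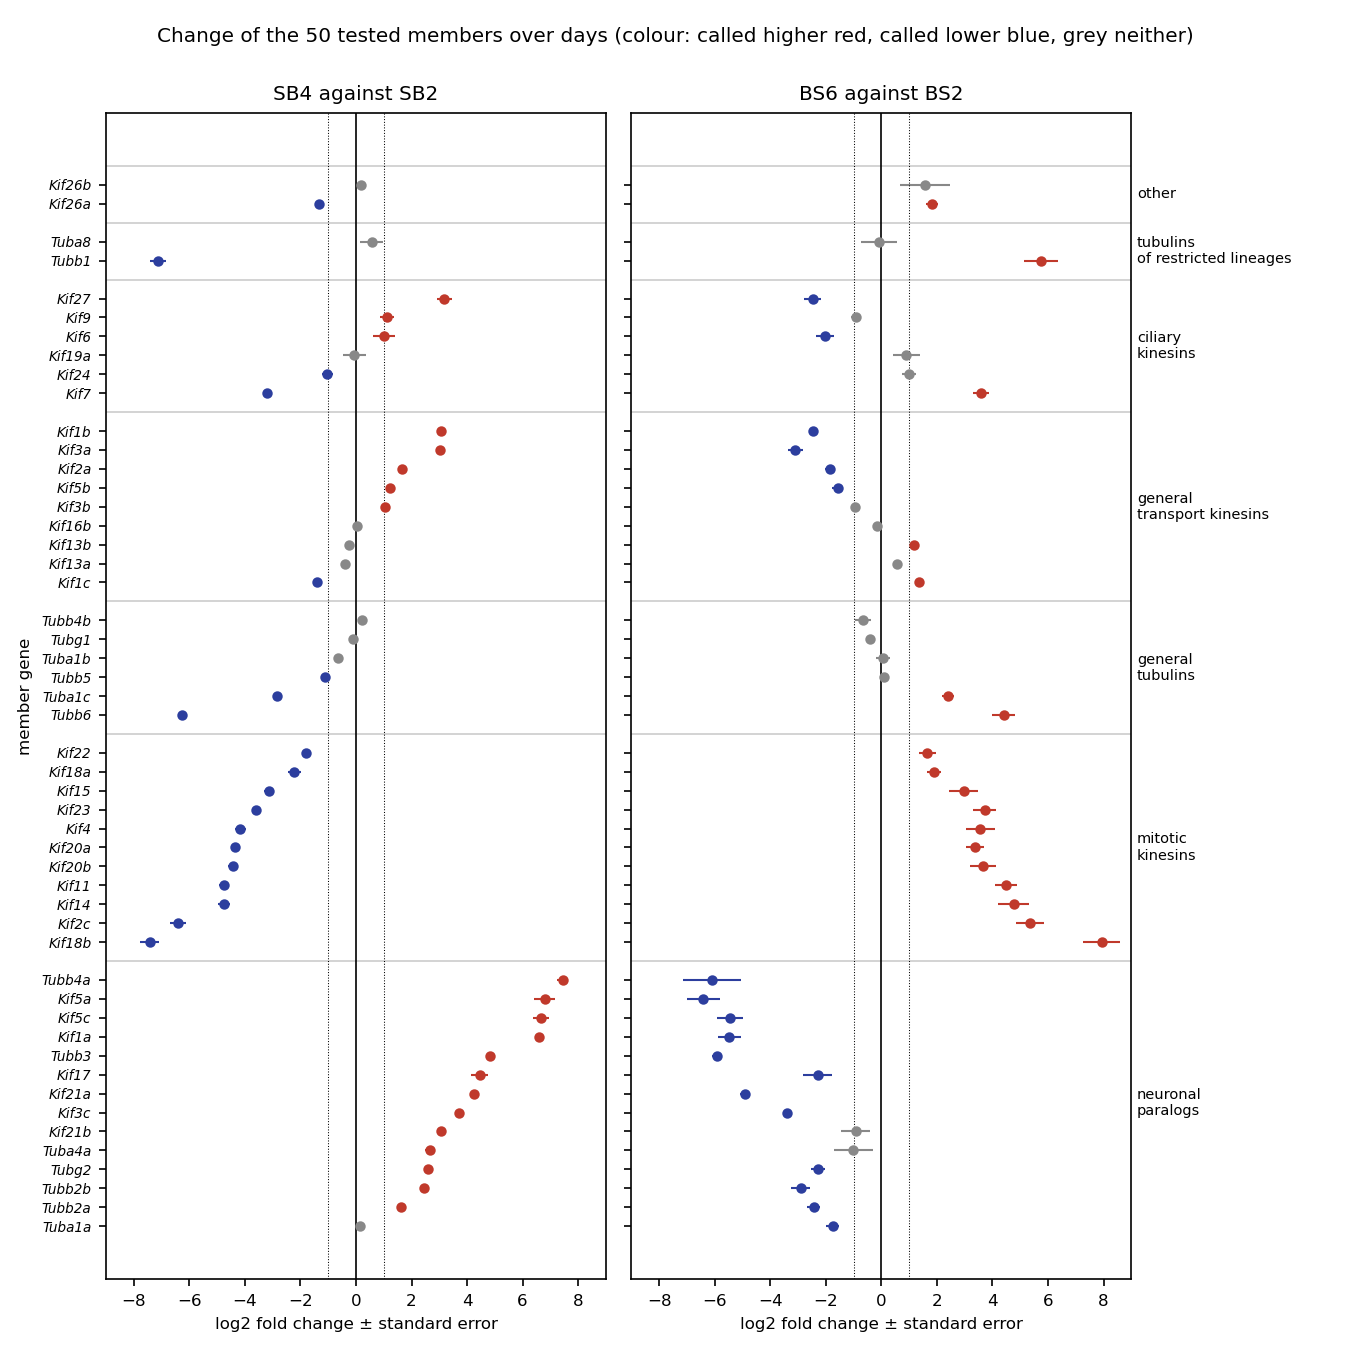
Log2 fold change and standard error of the 50 tested members in SB4 against SB2 (left) and BS6 against BS2 (right), by class, with called members in red (higher) or blue (lower), the others in grey, and dotted lines at the threshold of 1. Neuronal paralogs lie right of 0 on the left and left of 0 on the right, and mitotic kinesins lie the other way round.

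Groups that resembled each other were compared next. In SB4 against BS2, edgeR called 0 of 46 tested members higher and 0 lower, where 0.086% and 0.0614% of all genes were called. At an unadjusted p under 0.05 there were 8 higher and 1 lower members, and the share of all genes at that threshold was not determined. DESeq2 called 0 in both directions. Log2 fold changes of the members lay between -0.52 for Kif6 and 0.53 for Kif23, and 1 member had an adjusted p under 0.05, Kif1b (log2 fold change 0.44 ± 0.05, adjusted p = 5.76e-05). For Tubb3 the log2 fold change was 0.02 ± 0.05, for Kif5a 0.16 ± 0.05 and for Kif11 0.03 ± 0.33. These comparisons join a brain label and a skull label and different days, which cannot be told apart.

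In SB2 against BS6, 5 of 48 tested members were called higher and 0 lower, where 0.741% and 1.11% of all genes were called. The 5 called higher were Tubb6 (log2 fold change 1.88 ± 0.34, adjusted p = 0.0395), Tuba1a (log2 fold change 1.5 ± 0.24, adjusted p = 0.0327), Tubb3 (log2 fold change 1.14 ± 0.23, adjusted p = 0.0458), Kif20a (log2 fold change 1.12 ± 0.18, adjusted p = 0.0327) and Tubb5 (log2 fold change 1.01 ± 0.13, adjusted p = 0.0293). In the lower direction edgeR gave 5 members at an unadjusted p under 0.05, where the share of all genes was not determined. DESeq2 called 1. Of the 5 called higher, 4 were tubulins, and in each of these genes all libraries labelled SB2 lay above all labelled BS6. The calls were not stable, since leaving out any library labelled SB2, or BS6 replicate 3, left 0 members called higher, leaving out BS6 replicate 1 left 1, and leaving out BS6 replicate 2 gave 9. With an adjusted p under 0.05 alone, Kif26a was lower in SB2 (log2 fold change -0.50 ± 0.10, adjusted p = 0.0471). Of the 11 mitotic kinesins, 1 was called, and the log2 fold changes of the 11 lay between 0.08 and 1.12. Cell markers in these groups were at unequal levels with a wide spread, and none of the markers given here was called. The 3 skeletal muscle markers summed to 166 to 1348 CPM in SB2 and 37.7 to 290.5 CPM in BS6 (median log2 fold change 2.84). Neutrophil lineage markers summed to 818 to 1454 CPM and 1378 to 24262 CPM (-3.02), and erythroid markers to 434 to 1631 CPM and 2849.8 to 4709 CPM (-2.43). Their part in the 5 calls was not tested.

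Close paralogs and overlapping genes limit some of these values. The share of 150-base windows of a gene's transcripts that also occur in transcripts of another gene was 54.7% for Tuba1a, 51.5% for Tuba1b, 40.1% for Tuba1c, 27.9% for Tubb2a, 18.8% for Tubb2b and 11.9% for Tubb4b. Reads from such windows could be split between these genes or dropped, so the values of each are uncertain, the Tuba1 shares most of all. Exons overlap a gene on the opposite strand over 37.3% of the exon length of Tuba4a (with Stk16), 35.3% of Kif3c (1110002L01Rik), 29.3% of Kif20a (Cdc23), 19.2% of Kif2a (Dimt1), 19.1% of Kif7 (9330171B17Rik), 16.3% of Tuba8 (Gm15856) and 15.1% of Kif4 (Pdzd11). The use of strand in counting is not given in the sources used here, so reads of these partners may be included.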

How the data were processed

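Reads were filtered by the authors with fastp and aligned to mm10 with HISAT2 2.1.0 (version from the submitters' processing notes). The deposited values are raw read counts for each gene symbol, not normalized. The counting program, annotation and use of strand are not given in the sources used here, nor is it said whether these counts precede the ComBat_seq batch correction, which could change the spread between libraries. The table held 0 columns of other samples and 0 rows without a gene name. The replicates are biological per the study's methods.

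The tests used edgeR 4.0.16 (R 4.3.3) with TMM factors, a minimum count of 10 in filterByExpr and the robust quasi-likelihood test, in fits of 2 groups of 3 libraries, with Benjamini-Hochberg adjustment over all tested genes. The difference between both changes over days was a contrast over all 12 libraries. The study's methods name DESeq2, which was run as an alternative (1.42.0). Standard errors were derived from the fold change and the F statistic of the test. CPM used TMM factors over all 12 libraries. Lengths and coordinates are from GENCODE M21 (GRCm38). Fits were tested on simulated data for SB4 against SB2 alone, with few genes changed and the same dispersion for all genes. Data in which most genes change, or with the wide spread of BS6, were not simulated. Other scalings, filters, the replicate number as a block and leaving out each library were also tried. The members, classes and lists were chosen with earlier results of these data known. Members given library by library are 31 chosen by role, and those with the 3 largest and 3 smallest log2 fold changes of each comparison among called members with at least 10 CPM.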

Additional observations from a re-analysis of the deposited data

Results flagged for a closer look

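The change over days differed between the brain labels (SB4 minus SB2) and the skull labels (BS6 minus BS2) for 26 of the members given library by library, in edgeR's test of the difference itself over all 12 libraries. Of all genes, 35.8% in the higher and 37.8% in the lower direction passed the thresholds in that test, so such differences were frequent throughout. The difference is in log2 units, and a positive value means that the member moved up more under the brain labels. Among neuronal tubulins it was 10.73 for Tubb3, 13.52 for Tubb4a, 4.04 for Tubb2a, 5.36 for Tubb2b, 1.89 for Tuba1a and 3.66 for Tuba4a. Among neuronal kinesins it was 12.04 for Kif1a, 13.18 for Kif5a, 12.10 for Kif5c, 7.08 for Kif3c and 3.96 for Kif21b, and it was 2.77 for the general motor Kif5b. Mitotic kinesins had -9.25 for Kif11, -7.75 for Kif4, -7.73 for Kif20a, -7.34 for Kif23, -3.48 for Kif22, -11.77 for Kif2c, -15.39 for Kif18b, -9.53 for Kif14 and -6.10 for Kif15. The others were Tubb5 with -1.22, Tuba1c with -5.26, Tubb6 with -10.67, Tubb1 with -12.88 and Kif7 with -6.80. The fitted values of Kif18b and Tubb1 depend on the prior count, since a group was at or under 3 counts, and that of Kif2c rests on a few counts in BS2 and SB4. For some members the BS6 against BS2 part of the difference leaned on BS6 replicate 2. Without that library this part moved from -6.11 to -8.07 for Tubb4a, -1.0 to -2.29 for Tuba4a and -0.92 to -1.79 for Kif21b. It also moved from -5.44 to -6.06 for Kif5c and from 2.96 to 2.35 for Kif15. Neuron and bone markers moved in the same opposite ways, by medians of 15.51 for the neuron list and -13.35 for the osteoblast and osteocyte list, and their part in these differences was not tested. Groups of 3 are too small for the test of single outlying libraries.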

How the results depend on the processing

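In both comparisons over days, the counts of members called stayed within 1.5 times the values given under every setting run: 18 to 22 higher and 14 to 22 lower in SB4 against SB2, 13 to 20 higher and 16 to 23 lower in BS6 against BS2, and 33 to 44 for the difference between both changes. None of the 31 named members lost its call or changed sign in SB4 against SB2 under a setting that tested it. With at least 10 counts in every library, Kif2c, Kif18b, Kif14 and Tubb1 were not tested there, nor were these 4 and Kif4 in BS6 against BS2. Upper-quartile factors moved the median log2 fold change of all genes in SB4 against SB2 from -0.01 to -0.14. Of 52 mean isotype shares, 34 moved by more than 1 SD without division by length.

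SB2 against BS6 was the least stable comparison. The 5 members called higher became 0 with the replicate number as a block and 0 to 9 when 1 library was left out. The count of 0 called lower became 1 with DESeq2, 3 in 1 fit over all 12 libraries, 1 with the adjusted p alone, and 0 to 1 when 1 library was left out. Of all genes, 121 higher and 182 lower became 163 and 125 with total counts only, 305 and 753 with DESeq2, 326 and 947 in 1 fit over all 12 libraries, 0 and 0 with the block or without any SB2 library, 17 and 17 without BS6 replicate 1, 17 and 15 without BS6 replicate 3, and 270 and 397 without BS6 replicate 2. In SB4 against BS2 the count of 0 called higher became 1 with the adjusted p alone. Of all genes there, 14 higher and 10 lower became 22 and 39 with the block, 25 and 18 with DESeq2, 26 and 24 with no filter, 3 and 5 in 1 fit over all 12 libraries, 68 and 17 without SB4 replicate 3, 25 and 16 without SB4 replicate 2, and 12 and 47 without BS2 replicate 1. The cause of these differences was not tested. No pairing by replicate number was seen, since the correlation of deviations from the group means lay between -0.0909 and 0.0626 over 18068 genes. The groups compared differ in day, so this cannot show how the numbers were given. The block result bears on the numbers alone.

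Log2 fold changes not called with all libraries changed sign when 1 library was left out. In BS6 against BS2 they ranged from -0.27 to 0.23 for Tuba1b, -1.12 to 0.37 for Tuba8 (called at -1.12, without BS6 replicate 2) and -0.23 to 2.07 for Kif26b. In SB2 against BS6 they ranged from -1.61 to 0.86 for Tubb4a, -0.58 to 0.22 for Kif5a, -0.13 to 0.71 for Kif14, -0.17 to 0.70 for Kif15, -0.71 to 0.78 for Tuba8, -2.02 to 0.26 for Kif26b and -0.17 to 0.21 for Kif7 (-0.018 in 1 fit over all 12 libraries). In SB4 against BS2 they ranged from -0.014 to 0.041 for Tubb3, -0.074 to 0.047 for Tubb2a, -0.36 to 0.19 for Kif11, -0.18 to 0.86 for Kif4, -0.13 to 0.30 for Kif20a, -0.15 to 0.13 for Kif22, -0.38 to 0.18 for Kif15, -0.029 to 0.14 for Tuba1b, -0.13 to 0.12 for Tubb6 (0.0030 with no filter and 0.0068 with the replicate block), -0.11 to 0.13 for Tubg1 and -0.052 to 0.076 for Kif5b. At 3 counts in the smallest library, levels under 0.217 CPM could not be told from 0, which bears on Kif18b, Kif2c, Tubb1 and Kif28.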
